A study of Drosophila melanogaster with 9 samples.

Results

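Adding UAS transgenes of hb and nub to a set of 4 others was examined by comparing 3 Hexa libraries with 3 Quad libraries, 6 of the 9 libraries in the study. All were made from whole Drosophila melanogaster embryos, more than 200 per collection, taken from stage 16 up to a later point that the labels abbreviate as AFT. Hexa embryos carried the Insc-Gal4 driver with UAS-hb, UAS-ase, UAS-Kr, UAS-wor, UAS-nub and UAS-SoxN. Quad embryos carried the same driver with UAS-ase, UAS-Kr, UAS-wor and UAS-SoxN, so that by the labels hb and nub alone separate both genotypes. The Control embryos (3 libraries) carried Insc-Gal4 over OregonR chromosomes with no UAS transgene, and their values are given beside those of the other groups. By its name the driver uses the regulatory region of inscuteable, a gene of neuroblasts, so that the transgenes were aimed at a small part of the tissue that was sequenced. The labels place Hexa in experiment 3, Quad in experiment 2 and Control in experiment 1, and genotype and experiment cannot be told apart in any comparison below.

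Neuroblasts are the neural stem cells of the fly. In the embryo many of them express a fixed sequence of temporal factors, in which Hunchback (hb) comes first, Krüppel (Kr) follows, and the POU-domain proteins Nubbin (nub, also called Pdm1) and Pdm2 come after it, before Castor. The factor present when a neuroblast divides sets which neurons or glia the division yields. Asense (ase) and Worniu (wor) are neuroblast factors, and SoxN is a Sox-family factor of the early neuroectoderm. Outside neuroblasts, hb acts in segmentation, and nub acts in appendages and, through its isoforms, in the control of antimicrobial genes in the gut.

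Deposited counts summed to between 8555639 and 11390902 reads in Hexa, between 10297721 and 11465747 in Quad and between 11338459 and 11687961 in Control. Levels below are the authors' RPKM (reads normalised for the length of the transcript and the depth of the library). A difference is that of log2(RPKM + 0.1), Hexa minus Quad, with its standard error (SE), and an adjusted p is limma's with Benjamini-Hochberg adjustment over 6190 genes. The threshold was 0.05, and "rose" and "fell" are used for genes past it. The labels call the 3 collections of a genotype biological replicates and do not say whether they came from separate crosses, so the p-values measure the spread between these collections. In whole embryos, fewer cells of a type and less RNA per cell cannot be told apart.

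Both gene products that define the comparison were looked at first. The level of hb was 18.1, 8.87 and 14.7 RPKM in Hexa 1, 2 and 3, against 6.99, 2.83 and 1.81 RPKM in Quad 1, 2 and 3 and 1.72, 1.55 and 1.40 RPKM in the controls. All Hexa libraries stood above all Quad libraries, with Quad 1 closest to them. The rise was log2 1.98 ± 0.44 (SE; 95% interval 0.97 to 2.98, adjusted p = 0.0186, limma), and it was no longer past the threshold without Hexa 1, Quad 2 or Quad 3 (adjusted p up to 0.0616), nor with the heat shock covariate described below (adjusted p = 0.274). The level of nub was 31.6, 22.3 and 28.5 RPKM in Hexa, against 20.9, 19.6 and 21.3 RPKM in Quad and 18.4, 17.9 and 18.8 RPKM in the controls. Hexa and Quad did not overlap, as held for 50.8% of all tested genes, and Hexa 2 lay closest to Quad. The difference of log2 0.40 ± 0.13 (95% interval 0.10 to 0.70) missed the threshold (adjusted p = 0.0568, limma), and it passed without Hexa 2 (log2 0.54, adjusted p = 0.0172). The deposited count column gave both genes the opposite sign in edgeR's quasi-likelihood test, log2 -0.51 for hb (adjusted p = 0.226) and -1.53 for nub (adjusted p = 0.0448). That column matched the reads implied by RPKM in 0.397% of 3024 tested genes with several annotated transcripts, against 79.2% of 3072 with a single one, and in all libraries together it holds 1155 reads for hb and 3467 for nub. RPKM does not separate transgene from endogenous transcripts.

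**Figure D1:**
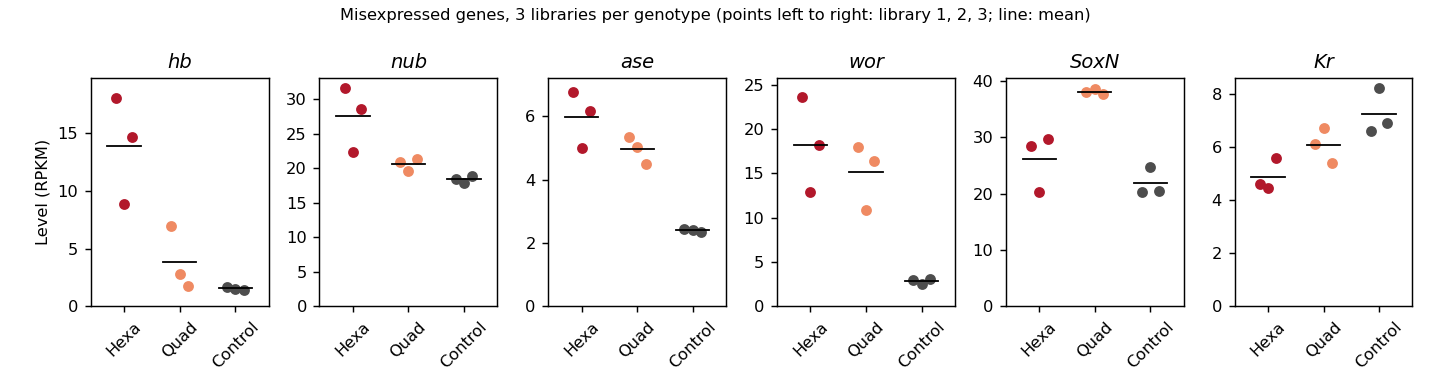
Levels (RPKM, linear axis from 0) of the 6 genes with UAS transgenes in the 3 libraries of Hexa, Quad and Control, 1 point per library and a line at the mean. The hb points of Hexa lie between 8.87 and 18.1 RPKM, all above Quad, while SoxN is the only gene of the other 4 whose Hexa libraries (20.3 to 29.7 RPKM) differ from Quad past the threshold, and there Hexa is lower.

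Of the 4 factors that both genotypes carry, only SoxN passed the test. The level of ase was 6.75, 5.01 and 6.15 RPKM in Hexa and 5.35, 5.02 and 4.48 RPKM in Quad (log2 0.26 ± 0.14, 95% interval -0.06 to 0.58, adjusted p = 0.200, limma). For wor the values were 23.6, 12.9 and 18.2 RPKM in Hexa and 18.0, 10.9 and 16.4 RPKM in Quad (log2 0.26 ± 0.24, 95% interval -0.28 to 0.80, adjusted p = 0.443). Library 2 was the lowest for wor in both genotypes, and the groups overlapped for ase and wor. SoxN had 28.4, 20.3 and 29.7 RPKM in Hexa against 38.1, 38.6 and 37.6 RPKM in Quad and 20.3, 24.8 and 20.4 RPKM in the controls. Its fall of log2 -0.56 ± 0.16 (adjusted p = 0.0332, limma) did not pass without Hexa 1, Hexa 2 or any 1 of the Quad libraries. The deposited count column holds no reads of SoxN, so this fall rests on RPKM alone. Kr, the factor between Hunchback and Nubbin in the sequence, had 4.59, 4.46 and 5.57 RPKM in Hexa, 6.11, 6.71 and 5.40 RPKM in Quad and 6.61, 8.20 and 6.91 RPKM in the controls (Hexa against Quad log2 -0.31, 95% interval -0.64 to 0.01, adjusted p = 0.134). No Hexa library and 1 Quad library exceeded the lowest control, so a Kr level above the controls was not seen in either genotype, although the labels give both a UAS-Kr transgene.

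Across all tested genes 1431 of 6190 (23.1%) differed between Hexa and Quad. Of these 835 (13.5%) rose and 596 (9.63%) fell, and 355 (5.74%) rose and 92 (1.49%) fell by at least 2-fold. When RPKM was rescaled with TMM factors, 730 genes were higher and 841 lower, and by at least 2-fold 322 were higher and 114 lower. The libraries of both groups did not overlap in 3147 genes (50.8%). The Control mean lay nearer to Quad than to Hexa in 714 of the 835 genes that rose (85.5%) and in 516 of the 596 that fell (86.6%), beside 4336 of all 6190 tested genes (70.0%). At 2-fold or more this held for 310 of 355 rises (87.3%) but only 67 of 92 falls (72.8%). Among all genes that differed by at least 2-fold, called or not, it held for 519 of 649 (80%).

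Measured properties of the libraries moved with the comparison and are given here before the gene groups. The first is transcript length. The longest annotated transcript had a median of 1103 bases in genes that rose, 4024 bases in genes that fell and 1636 bases in all tested genes. Of 5 length classes of nearly equal size, the shortest (31 to 791 bases) had 20.7% of genes that rose and 2.13% that fell, and the longest (3169 to 56489 bases) had 1.72% and 31.0%. Hexa 2 departed most: its median deviation from the mean of 9 libraries was log2 0.50 in the shortest class and -0.45 in the longest, against -0.15 to -0.09 and 0.14 to 0.18 in the Quad libraries. Without Hexa 2 the median differences of these classes were 0.26 and -0.27, in place of 0.39 and -0.38. With the length trend of each library removed, 571 of 6096 genes rose (9.37%) and 415 fell (6.81%), and 702 of these 986 calls were shared with the calls on RPKM in the same direction. The second property is the heat shock genes. Averaged over 17 genes on the log2 scale and set against the mean of the controls, they stood at 0.82, 2.17 and 2.52 in Hexa 1, 2 and 3, against 0.74, -0.80 and -0.26 in Quad 1, 2 and 3. For most gene groups, counts are also given below with the length trend removed, without Hexa 2, and with these heat shock values as a covariate. The covariate fit left 310 genes higher and 27 lower at a median difference of log2 0.08 over all tested genes. Because the heat shock values were higher in every Hexa library than in any Quad library, this fit estimates the difference less precisely. A call can be lost by that alone, and whether heat shock accounts for any difference was not tested. Hexa 2 was not alone in moving the calls. Over all 6190 genes 643 were left without Hexa 2 (434 higher, 209 lower), 560 without Hexa 1 (400 and 160) and 1840 without Hexa 3 (967 and 873). Without Quad 1, 2 and 3 there were 558 (412 and 146), 574 (441 and 133) and 442 (355 and 87). The list counts given below for these settings stand against these numbers over all genes. Tests of genes that reached the filter in Hexa libraries alone also rest on that filter (37 genes, 28 of them called higher). The genes of the lists below among them are ftz, ng1, ng2, Amyrel, Pcp and a copy of His4. The shares of the lists that hold them rest in part on the filter too.

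**Figure D2:**
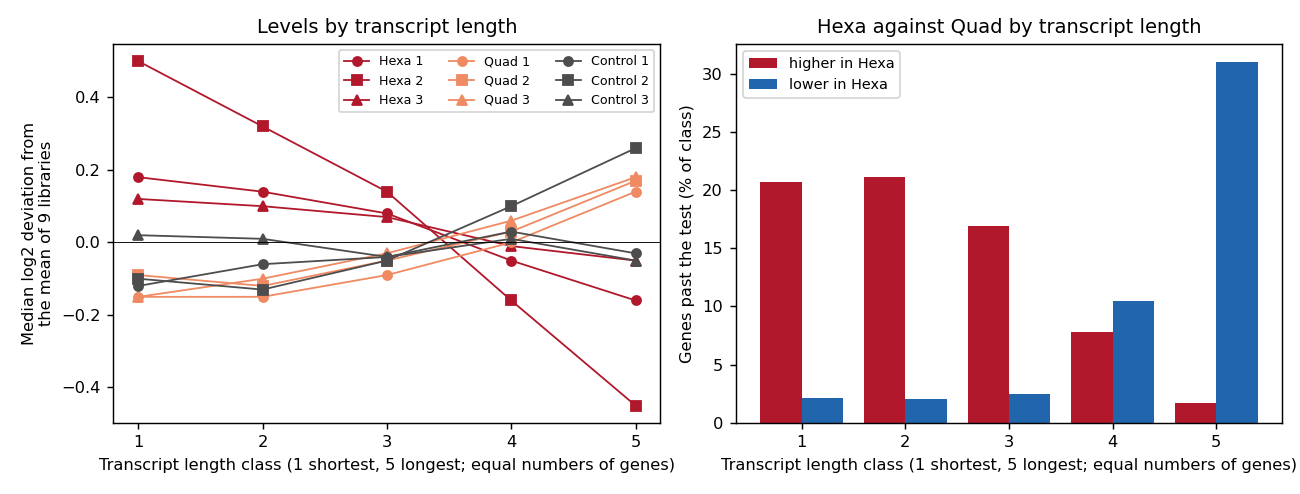
Left, the median log2 deviation of each library from the mean of all 9 libraries in 5 classes of transcript length (1 the shortest, 5 the longest, with nearly equal numbers of genes). Right, the percentage of genes in each class that was higher (red) or lower (blue) in Hexa than in Quad past the threshold: rises fall off to 1.72% and falls climb to 31.0% in the longest class, and Hexa 2 has the steepest line.

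Among the 14 largest rises picked by the naming rule, which leaves out genes known by a CG number alone, Tsf1 came first. Tsf1, which encodes the iron-binding protein transferrin of the hemolymph, had 144, 97.0 and 83.4 RPKM in Hexa against 1.05, 0.988 and 0.996 RPKM in Quad and 0.147, 0.168 and 0.180 RPKM in the controls. Every Hexa library stood far above every other library, and the rise of log2 6.57 ± 0.20, or 94.7-fold, was the largest of the 14 (adjusted p = 2.42e-07, limma). The deposited count column holds only 3 reads of Tsf1, so this rise rests on RPKM alone. lectin-37Db, a C-type lectin, had 193, 136 and 115 RPKM in Hexa against 8.30, 6.37 and 5.12 RPKM in Quad and 3.11 to 3.65 RPKM in the controls (log2 4.46 ± 0.22, adjusted p = 1.16e-05). Here Quad was already above the controls, and Hexa rose further. lcs showed the same order, with 412, 403 and 267 RPKM in Hexa, 39.6, 45.9 and 26.7 RPKM in Quad and 0.847 to 3.48 RPKM in the controls (log2 3.28 ± 0.45, adjusted p = 0.00311). Peritrophin-15a, a chitin-binding protein of the peritrophic matrix that lines the midgut, had 166, 118 and 92.9 RPKM in Hexa and 14.4, 24.3 and 12.4 RPKM in Quad (log2 2.90 ± 0.34, adjusted p = 0.00135). These 4 rises passed without any single library, with the length trend removed and with the heat shock covariate.

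The other 10 of the 14 largest rises belong to the groups described below: Jon74E of the midgut, AttA, AttB and Drs of the antimicrobial peptides, ng3 of the salivary gland, Nplp4 of the neuropeptide-like genes, and Hsp22, Hsp26, Hsp68 and Hsp23. Among the 14, Hsp26, Hsp23, Nplp4 and Drs did not pass with the length trend removed (adjusted p 0.0608, 0.0643, 0.0542 and 0.0870).

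**Figure D3:**
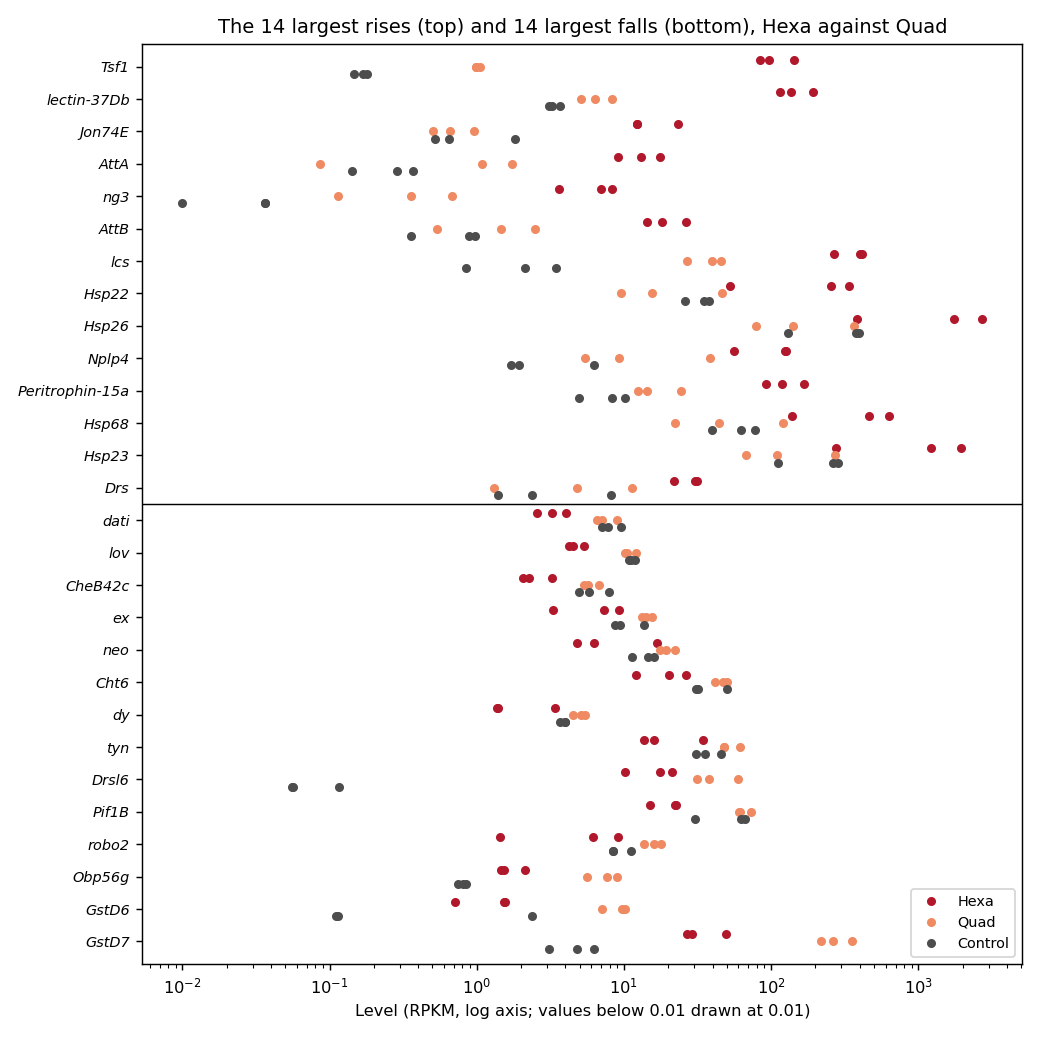
RPKM (log axis) of the 14 named genes with the largest rises (upper part) and the 14 with the largest falls (lower part) in Hexa (red), Quad (orange) and Control (grey), 1 point per library. In Tsf1 the Hexa points sit between 83.4 and 144 RPKM and the Quad points near 1, in the Hsp genes 1 Hexa library lies close to 1 Quad library, and in GstD7 and Drsl6 both misexpression groups are above Control with Quad the highest.

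Of 47 tested genes of midgut digestion 19 rose (40.4%, beside 13.5% of all genes) and none fell, with a median difference of log2 0.98 beside 0.06 over all tested genes. Jon74E, a Jonah serine protease, had 23.4, 12.2 and 12.3 RPKM in Hexa against 0.502, 0.956 and 0.663 RPKM in Quad and 0.518, 1.81 and 0.648 RPKM in the controls (log2 4.28 ± 0.44, adjusted p = 7.47e-04, limma). Quad and Control overlapped there, and Hexa was apart from both. Amy-d, an amylase, had 30.5, 12.1 and 17.9 RPKM in Hexa and 2.72, 2.98 and 3.30 RPKM in Quad (log2 2.61 ± 0.35, adjusted p = 0.00245). Jon65Aiv, another Jonah protease, had 279, 228 and 166 RPKM in Hexa, 65.8, 88.2 and 79.8 RPKM in Quad and 132, 165 and 136 RPKM in the controls, so that Quad was the lowest group (log2 1.50 ± 0.20, adjusted p = 0.00206). The maltase Mal-B2 (log2 1.17 ± 0.18, adjusted p = 0.00405) and the trypsin lambdaTry (log2 0.99 ± 0.16, adjusted p = 0.00516) rose as well. The summed level of the list was 1199 to 1707 RPKM in Hexa and 732 to 966 RPKM in Quad. On values freed of the length trend 10 members were higher and 1 lower, 9 were higher without Hexa 2, and with the heat shock covariate 17 were higher at a median of log2 1.62.

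The new glue genes ng1, ng2 and ng3, short genes expressed in the larval salivary gland, were the 3 of 8 tested salivary genes past the threshold (37.5%, beside 13.5% of all genes). ng1 had 4.68, 5.37 and 2.68 RPKM in Hexa against 0.202, 0.431 and 0.173 RPKM in Quad (log2 3.57 ± 0.37). Both ng1 and ng2 reached the filter through Hexa libraries alone, so their calls rest in part on that filter. The share of 37.5% rests on it too and cannot be read against that of all genes. ng3 had 8.36, 6.95 and 3.63 RPKM in Hexa against 0.355, 0.679 and 0.114 RPKM in Quad (log2 3.84 ± 0.48, adjusted p = 0.00152, limma), and at most 0.0366 RPKM in the controls. ng3 stayed higher without any single library and under the length and heat shock settings. ng1 and ng2 did so as well, but in fits that kept the same filter. Their relative ng4 had 0.226, 0.412 and 0.719 RPKM in Hexa and 0.237, 0.355 and 0.127 RPKM in Quad (adjusted p = 0.271), and sage, which encodes a salivary gland transcription factor, had 2.09, 4.11 and 3.66 RPKM in Hexa and 3.52, 3.26 and 4.06 RPKM in Quad (adjusted p = 0.573). Of 5 tested genes of the Malpighian tubule 2 rose (40%, beside 13.5% of all genes). They were Irk2, a potassium channel, with 61.0, 54.2 and 48.1 RPKM in Hexa and 24.9, 26.8 and 26.6 RPKM in Quad (log2 1.05 ± 0.15, adjusted p = 0.00303), and Uro, the urate oxidase gene, with 1.29, 1.33 and 1.15 RPKM in Hexa and 0.0167, 0.771 and 0.0359 RPKM in Quad (log2 2.50 ± 0.71, adjusted p = 0.0350). The Uro call was lost without any 1 of the Hexa libraries, Quad 1 or Quad 3.

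Antimicrobial peptide genes rose in 7 of 18 cases (38.9%, beside 13.5% of all genes), and 1 fell, at a median of log2 0.93. AttB, an attacin, had 26.4, 14.3 and 18.1 RPKM in Hexa, 1.46, 2.50 and 0.541 RPKM in Quad and 0.356 to 0.976 RPKM in the controls (log2 3.79 ± 0.52, adjusted p = 0.00311, limma). AttA followed it, with 17.7, 9.18 and 13.0 RPKM in Hexa and 1.08, 1.74 and 0.0860 RPKM in Quad (log2 4.13 ± 0.76, adjusted p = 0.00926). Both are near-identical copies whose reads the counting could split, and AttB did not pass on counts (adjusted p = 0.220, edgeR). Dro, which encodes drosocin, had 3.47, 2.21 and 1.56 RPKM in Hexa and 0.393, 0.676 and 0.0938 RPKM in Quad (log2 2.51 ± 0.55, adjusted p = 0.0150). Drs, the antifungal peptide drosomycin, had 30.3, 31.3 and 21.8 RPKM in Hexa and 4.80, 11.3 and 1.32 RPKM in Quad (log2 2.68 ± 0.80, adjusted p = 0.0433). The Drs call was lost on leaving out any 1 of 6 of the 9 libraries, with the heat shock covariate and on counts (adjusted p = 0.0959, edgeR). Drsl6, a drosomycin-like gene, fell: it had 17.5, 21.3 and 10.1 RPKM in Hexa, 31.4, 37.9 and 59.6 RPKM in Quad and at most 0.116 RPKM in the controls (log2 -1.41 ± 0.31, adjusted p = 0.0164). It was thus abundant in both misexpression groups and close to 0 in the controls. Drsl2 went the other way against the controls, with 0.408, 1.04 and 0.339 RPKM in Hexa, 0.127, 0.0712 and 0 RPKM in Quad and 2.02, 1.16 and 1.88 RPKM in the controls (Hexa against Quad log2 2.01 ± 0.45, adjusted p = 0.0164). With the length trend removed 4 members were higher and 1 lower, and without Hexa 2 also 4 and 1. With the heat shock covariate 2 were higher, at a median of log2 1.52.

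Of 17 genes of immune recognition and signalling 6 rose (35.3%, beside 13.5% of all genes) and 1 fell, at a median of log2 0.25. PGRP-SB2, a peptidoglycan recognition protein, had 96.3, 77.4 and 52.1 RPKM in Hexa, 21.4, 10 and 8.41 RPKM in Quad and at most 0.111 RPKM in the controls (log2 2.57 ± 0.36, adjusted p = 0.00311, limma). GNBP3, a sensor of fungal glucans, had 8.63, 7.13 and 5.66 RPKM in Hexa and 2.76, 3.26 and 2.62 RPKM in Quad (log2 1.27 ± 0.25, adjusted p = 0.00970). The Toll receptor gene Tl fell, with 14.6, 9.96 and 17.9 RPKM in Hexa and 23.5, 24.8 and 23.7 RPKM in Quad (log2 -0.80 ± 0.21, adjusted p = 0.0295). After removal of the length trend 4 were higher and 2 lower, and without Hexa 2 there were 3 higher and none lower. The heat shock covariate left 2 higher at a median of log2 0.52.

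Of 10 metal and iron genes 6 rose (60%, beside 13.5% of all genes) and 1 fell, at a median of log2 0.90. MtnA, a metallothionein (a small metal-binding protein), had 1899, 2444 and 1571 RPKM in Hexa, 1025, 943 and 998 RPKM in Quad and 463 to 642 RPKM in the controls (log2 0.97 ± 0.18, adjusted p = 0.00849, limma). MtnC (log2 2.04 ± 0.35, adjusted p = 0.00661), MtnE (log2 1.33 ± 0.24, adjusted p = 0.00754) and MtnB (log2 1.96 ± 0.48, adjusted p = 0.0244) rose with it, whereas the copper importer gene Ctr1A fell (log2 -0.38 ± 0.11, adjusted p = 0.0350). On values freed of the length trend 4 were higher and 1 lower. Leaving out Hexa 2 gave 4 higher and none lower, and the heat shock covariate 2 higher at a median of log2 1.22.

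Glutathione S-transferases of the GstD and GstE clusters rose in 8 of 20 cases (40%, beside 13.5% of all genes) and fell in 2 (10%, near the 9.63% of all genes). GstD1 had 582, 592 and 465 RPKM in Hexa, 213, 234 and 224 RPKM in Quad and 122 to 152 RPKM in the controls (log2 1.28 ± 0.14, adjusted p = 7.67e-04, limma). GstD7 went against it, with 28.8, 49.2 and 27.0 RPKM in Hexa, 219, 263 and 355 RPKM in Quad and 3.10, 4.79 and 6.24 RPKM in the controls (log2 -3.02 ± 0.31, adjusted p = 7.42e-04). Quad was thus the highest group for GstD7, 8.09-fold above Hexa, and GstD6 had the same order with 1.55, 1.53 and 0.710 RPKM in Hexa, 7.05, 9.73 and 10.2 RPKM in Quad and 0.111, 2.38 and 0.115 RPKM in the controls (log2 -2.79 ± 0.86, adjusted p = 0.0477). The GstD6 call was lost without any 1 of the Hexa or Quad libraries, while the fall of GstD7 passed without any single library, with the length trend removed and on counts (log2 -3.10, adjusted p = 5.08e-04, edgeR). Members of the GstD cluster are similar in sequence, and how shared reads were assigned is not stated. With the length trend removed 3 were higher and 2 lower, without Hexa 2 there were 4 and 1, and with the heat shock covariate 3 and 1.

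Odorant-binding proteins, small secreted carriers found in sensory and other tissues, rose in 14 of 23 cases (60.9%, beside 13.5% of all genes) and fell in 1. Obp56a had 32.9, 37.4 and 23.8 RPKM in Hexa, 7.33, 17.0 and 10.8 RPKM in Quad and 10.2 to 11.2 RPKM in the controls (log2 1.47 ± 0.28, adjusted p = 0.00868, limma). Obp47a (log2 1.62 ± 0.29, adjusted p = 0.00719) and Obp56h (log2 1.02 ± 0.19, adjusted p = 0.00780) rose too. The exception, Obp56g, had 1.46, 2.13 and 1.53 RPKM in Hexa, 5.63, 7.64 and 9.03 RPKM in Quad and 0.746 to 0.847 RPKM in the controls (log2 -2.05 ± 0.21, adjusted p = 7.33e-04). These genes are short (median 689 bases), and with the length trend removed 4 were higher and 2 lower. Without Hexa 2 there were 6 higher and 1 lower, and the heat shock covariate left 5 and 1 at a median of log2 0.73.

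Heat shock genes were higher in Hexa than in Quad in 10 of 17 cases (58.8%, beside 13.5% of all genes) at a median of log2 2.15. Hsp22, a small chaperone, had 52.5, 257 and 336 RPKM in Hexa, 46.2, 9.50 and 15.4 RPKM in Quad and 26.1 to 37.7 RPKM in the controls (log2 3.12 ± 0.75, adjusted p = 0.0235, limma). Hsp26 had 384, 1735 and 2725 RPKM in Hexa, 364, 78.4 and 141 RPKM in Quad and 131 to 394 RPKM in the controls (log2 2.94 ± 0.82, adjusted p = 0.0370). Hexa 1 and Quad 1 had nearly equal levels of both, Hexa 2 and Hexa 3 were high, and Quad 2 and Quad 3 were low. The deposited count column holds no reads of Hsp22 and 11 of Hsp26, so both calls rest on RPKM. Hsp68, a member of the Hsp70 family, had 138, 462 and 634 RPKM in Hexa and 120, 22.2 and 44.0 RPKM in Quad (log2 2.80 ± 0.70, adjusted p = 0.0270), and Hsp23 rose by log2 2.78 ± 0.77 (adjusted p = 0.0367). Without Hexa 2, Quad 2 or Quad 3 no heat shock gene passed, and 15 did without Hexa 1. Removal of the length trend gave 10 higher members, 8 of them among the 10 on RPKM. Hsp70Aa had 186, 505 and 586 RPKM in Hexa and 152, 56.6 and 73.3 RPKM in Quad (log2 2.15 ± 0.52, adjusted p = 0.0246). Its copies share near-identical sequence, and their separate values are uncertain.

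Of 11 tested neuroblast genes 1 rose and 2 fell at a median of log2 0.05, a share of calls close to the 23.1% of all genes. klu, which encodes a zinc finger factor of neuroblasts, had 6.01, 6.03 and 7.10 RPKM in Hexa, 9.26, 9.73 and 9.50 RPKM in Quad and 6.34 to 7.13 RPKM in the controls (log2 -0.57 ± 0.11, adjusted p = 0.0104, limma). Hexa thus overlapped the controls and Quad lay above both, and the fall passed without any single library but not with the length trend removed (log2 -0.20, adjusted p = 0.210). insb had 7.54, 7.67 and 8.33 RPKM in Hexa, 5.69, 3.82 and 4.99 RPKM in Quad and 2.28 to 3.91 RPKM in the controls (log2 0.71 ± 0.21, adjusted p = 0.0434), and Syp, an RNA-binding protein gene of late neuroblasts, fell (log2 -0.45 ± 0.14, adjusted p = 0.0448). Both calls were lost without any 1 of several libraries and with the length trend removed. The neuroblast markers dpn (6.38, 5.82 and 7.36 RPKM in Hexa, 5.67, 5.48 and 5.36 RPKM in Quad; log2 0.23, adjusted p = 0.202) and mira (19.2, 17.7 and 21.0 RPKM in Hexa, 16.8, 14.5 and 16.7 RPKM in Quad; log2 0.27, adjusted p = 0.182) missed the threshold. Neither overlapped between Hexa and Quad, as held for 50.8% of all tested genes. In the controls dpn stood at 4.08 to 4.94 RPKM and mira at 10.2 to 14.2 RPKM.

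Among 7 other temporal factors 1 rose (14.3%, near the 13.5% of all genes) and 2 fell (28.6%, beside 9.63% of all genes). pdm2, the partner of nub in the Pdm window, had 17.3, 10.3 and 14.6 RPKM in Hexa, 8.97, 9.61 and 8.57 RPKM in Quad and 6.87 to 7.73 RPKM in the controls (log2 0.60 ± 0.17, adjusted p = 0.0382, limma). Among the Hexa libraries it was highest in Hexa 1 and lowest in Hexa 2, the order that hb and nub have. ase and wor, whose transgenes both genotypes carry, have that order too, and a link between these levels was not tested. After removal of the length trend the rise was log2 0.93 (adjusted p = 0.00351), and on RPKM it was lost when Hexa 1, Hexa 3, any 1 Quad library, Control 1 or Control 3 was left out. br, which encodes the zinc finger protein Broad, had 5.21, 5.84 and 6.01 RPKM in Hexa, 10.6, 11.9 and 10.4 RPKM in Quad and 6.98 to 12.7 RPKM in the controls (log2 -0.94 ± 0.20, adjusted p = 0.0131). svp, which encodes the nuclear receptor Seven-up that ends the Hunchback window, had 12.7, 9.77 and 14.3 RPKM in Hexa and 17.8, 18.3 and 15.9 RPKM in Quad (log2 -0.51 ± 0.15, adjusted p = 0.0396). Neither fall passed with the length trend removed (adjusted p = 0.104 and 0.123). Castor (cas) had 6.04, 6.10 and 7.75 RPKM in Hexa and 7.22, 7.76 and 7.73 RPKM in Quad (log2 -0.20, adjusted p = 0.264).

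Transcription factors that set neuron identity fell in 6 of 22 cases (27.3%, beside 9.63% of all genes) and rose in 1. lov, which encodes a BTB-domain factor of the nervous system, had 4.23, 4.52 and 5.34 RPKM in Hexa, 10.5, 12.0 and 10.2 RPKM in Quad and 10.9 to 11.9 RPKM in the controls (log2 -1.20 ± 0.12, adjusted p = 7.33e-04, limma). dati, a zinc finger gene on chromosome 4, had 3.27, 2.58 and 4.03 RPKM in Hexa, 7.13, 8.94 and 6.59 RPKM in Quad and 7.06 to 9.50 RPKM in the controls (log2 -1.18 ± 0.19, adjusted p = 0.00507). For both genes Quad overlapped the controls and Hexa was lower, by 2.30-fold and 2.27-fold. Both falls passed without any single library, with the length trend removed and on counts. With the heat shock covariate lov passed (log2 -1.3, adjusted p = 0.0117) and dati did not (log2 -1.0, adjusted p = 0.116). exex, the fly Hb9 gene of motor neurons, had 9.57, 8.76 and 10.4 RPKM in Hexa and 13.4, 13.4 and 14.4 RPKM in Quad (log2 -0.52 ± 0.12, adjusted p = 0.0204). dac had 6.88, 6.46 and 8.39 RPKM in Hexa and 11.5, 11.8 and 11.6 RPKM in Quad (log2 -0.69 ± 0.12, adjusted p = 0.00653), and vnd and pdm3 also fell. ftz, a low gene that reached the filter through Hexa alone, had 0.553, 0.620 and 0.739 RPKM in Hexa, 0.297, 0.140 and 0.198 RPKM in Quad and at most 0.0666 RPKM in the controls (log2 1.26 ± 0.33), and its call rests in part on that filter. On values freed of the length trend 3 members were lower (lov, dati and exex) and 1 higher (ftz), and without Hexa 2 there were 3 lower and none higher. The heat shock covariate left lov alone, at a median of log2 -0.24 for the list.

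Neuropeptide genes rose in 13 of 26 cases (50%, beside 13.5% of all genes) and none fell, at a median of log2 0.65. FMRFa had 2.73, 3.11 and 2.09 RPKM in Hexa, 1.39, 1.11 and 1.44 RPKM in Quad and 1.28 to 1.60 RPKM in the controls (log2 0.95 ± 0.19, adjusted p = 0.0120, limma). Proc, the proctolin gene, had 27.7, 23.8 and 19.7 RPKM in Hexa and 13.8, 14.8 and 10.9 RPKM in Quad (log2 0.84 ± 0.19, adjusted p = 0.0160). Pburs, Akh and Ilp7 rose by log2 1.20, 0.87 and 1.12 (adjusted p 0.0173, 0.0210 and 0.0210), and Nplp4, with 125, 126 and 56.2 RPKM in Hexa and 9.29, 38.7 and 5.40 RPKM in Quad, by log2 2.93 ± 0.75 (adjusted p = 0.0290). The Nplp4 call was lost without Hexa 1, Hexa 2, Quad 1 or Quad 3 and on counts (adjusted p = 0.115, edgeR). The neuropeptide genes are short (median 862 bases). With the length trend removed 2 of the 26 were higher and 1 lower, beside 9.37% and 6.81% of all genes. Without Hexa 2 there were 3 higher and 1 lower, beside 434 and 209 of all 6190. With the heat shock covariate 2 were higher, at a median of log2 0.69, beside 310 of all 6190. Without Hexa 1 or Quad 3 there was 1 higher, and without Quad 1, Quad 2 and Hexa 3 there were 2, 6 and 16. FMRFa and Proc were the 2 left with the length trend removed.

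Of 9 genes of neurotransmission 1 rose (11.1%, near the 13.5% of all genes). It was the row Trh, which could not be matched to the annotation (11.5, 8.86 and 8.31 RPKM in Hexa, 5.65, 3.85 and 4.31 RPKM in Quad, log2 1.04 ± 0.18, adjusted p = 0.00594, limma). Of 10 glial genes 1 fell (10%, near the 9.63% of all genes). It was Gli, which encodes the septate junction protein Gliotactin (29.4, 20.9 and 37.3 RPKM in Hexa, 43.8, 42.4 and 41.5 RPKM in Quad, log2 -0.58 ± 0.18, adjusted p = 0.0462). The glial factor gene repo had 7.57, 8.60 and 9.32 RPKM in Hexa and 8.69, 9.50 and 9.83 RPKM in Quad (log2 -0.14, 95% interval -0.45 to 0.17, adjusted p = 0.475). Axon guidance genes fell in 9 of 17 cases (52.9%, beside 9.63% of all genes) at a median of log2 -0.43, among them robo2, a receptor for Slit, with 6.19, 1.45 and 9.18 RPKM in Hexa, 16.1, 13.7 and 17.9 RPKM in Quad and 8.37 to 11.2 RPKM in the controls (log2 -1.82 ± 0.56, adjusted p = 0.0468), a call lost on leaving out any 1 of 7 of the 9 libraries, and Sema1b (log2 -0.67 ± 0.15, adjusted p = 0.0165). The robo2 difference was log2 -1.06 (adjusted p = 0.0215) without Hexa 2, and it did not pass with the length trend removed (adjusted p = 0.0745). It rests on RPKM alone, because the deposited count column holds no reads of robo2. The axon guidance genes are long (median 6206 bases), and with the length trend removed 1 of the 17 was lower, near the 6.81% of all genes. Without Hexa 2 there were 2 lower, without Quad 1 or Quad 2 there was 1, and without Hexa 1 or Quad 3 none. Lower calls over all 6190 genes also dropped in these fits, from 596 to 209, 146, 133, 160 and 87 in that order. With the heat shock covariate none passed, at a median of log2 -0.40.

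Of 42 genes of G2 phase and mitosis 6 rose (14.3%, near the 13.5% of all genes) and 1 fell. Det had 7.05, 7.67 and 6.28 RPKM in Hexa and 3.99, 2.77 and 3.20 RPKM in Quad (log2 1.07 ± 0.17, adjusted p = 0.00428, limma). fzy, an activator of the anaphase-promoting complex, had 4.84, 5.11 and 6.84 RPKM in Hexa and 3.33, 3.02 and 3.46 RPKM in Quad (log2 0.74 ± 0.18, adjusted p = 0.0215), and the kinase gene Cdk1 rose by log2 0.62 ± 0.15 (adjusted p = 0.0209). After removal of the length trend 8 were higher and none lower, against a background of 9.37%. Only 3 of these 8 calls were shared with the calls on RPKM in the same direction. In the fit without Hexa 2 there were 3 higher, and none with the heat shock covariate. The cell cycle drivers stg (20.5, 22.8 and 26.9 RPKM in Hexa, 25.0, 23.8 and 22.8 RPKM in Quad; log2 -0.04, 95% interval -0.31 to 0.24) and CycE (4.62, 3.52 and 5.85 RPKM in Hexa, 5.03, 6.18 and 5.39 RPKM in Quad; log2 -0.27, 95% interval -0.69 to 0.15) did not pass (adjusted p = 0.841 and 0.304). Of 27 replication genes 2 rose (7.41%) and 1 fell (3.7%), beside 13.5% and 9.63% of all genes. RfC4 was among them, at 7.29, 7.73 and 7.55 RPKM in Hexa and 4.16, 4.26 and 4.14 RPKM in Quad (log2 0.83 ± 0.14, adjusted p = 0.00588). Histone genes rose in 10 of 50 rows (20%, beside 13.5% of all genes), and in none with the length trend removed. Most share near-identical copies.

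Of 21 genes of chitin and the epidermal surface 10 fell (47.6%, beside 9.63% of all genes) and none rose. tyn, dy and neo encode zona pellucida domain proteins of the apical matrix. tyn had 15.9, 13.7 and 34.2 RPKM in Hexa, 47.7, 61.9 and 47.5 RPKM in Quad and 31.1 to 45.6 RPKM in the controls (log2 -1.41 ± 0.31, adjusted p = 0.0177, limma). Its call was lost without Hexa 1, Hexa 2, Quad 2 or Quad 3 and on counts (log2 -0.55, adjusted p = 0.245, edgeR). For dy the levels were 1.39, 1.37 and 3.38 RPKM in Hexa and 4.53, 5.45 and 5.07 RPKM in Quad (log2 -1.37 ± 0.29, adjusted p = 0.0143), and for neo 4.79, 6.23 and 16.8 RPKM in Hexa and 17.7, 22.4 and 19.4 RPKM in Quad (log2 -1.30 ± 0.40, adjusted p = 0.0467). The neo call was lost on leaving out any 1 library but Hexa 3 and with the length trend removed (adjusted p = 0.0728). In all 3, Hexa 3 lay nearest to Quad and Quad lay above the controls. The chitinase genes Cht6, with 20.1, 12.1 and 26.6 RPKM in Hexa and 50.2, 41.4 and 46.9 RPKM in Quad (log2 -1.30 ± 0.28, adjusted p = 0.0160), and Cht7, with 95.5, 81.2 and 109 RPKM in Hexa and 153, 155 and 165 RPKM in Quad (log2 -0.74 ± 0.13, adjusted p = 0.00719), fell with them. On values freed of the length trend 7 were lower and none higher, 4 were lower without Hexa 2, and none passed with the heat shock covariate, at a median of log2 -0.55 beside -0.33 on RPKM.

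In the trachea 6 of 8 tested genes fell (75%, beside 9.63% of all genes) at a median of log2 -0.48. The chitin deacetylase genes serp, with 238, 278 and 277 RPKM in Hexa and 354, 381 and 363 RPKM in Quad (log2 -0.47 ± 0.12, adjusted p = 0.0236, limma), and verm, with 516, 549 and 606 RPKM in Hexa and 748, 762 and 753 RPKM in Quad (log2 -0.44 ± 0.12, adjusted p = 0.0347), shape the luminal matrix of the tubes. dysf, which encodes a factor of tracheal fusion cells, had 0.882, 0.902 and 1.22 RPKM in Hexa, 2.00, 1.89 and 1.76 RPKM in Quad and 1.10 to 1.26 RPKM in the controls (log2 -0.86 ± 0.18, adjusted p = 0.0125). With the length trend removed 5 of the 8 were lower, 3 were without Hexa 2 and 1 was without Quad 3. None passed with the heat shock covariate, at a median of log2 -0.56. Some genes, tyn, serp and verm among them, stand in both the epidermal and the tracheal list.

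Of 12 Osiris genes, a cluster of cuticle-forming tissue, 2 fell on RPKM (16.7%, beside 9.63% of all genes). With the length trend removed 5 were lower, against a background of 6.81%. Osi12 had 9.87, 9.19 and 15.8 RPKM in Hexa, 19.0, 22.3 and 23 RPKM in Quad and 10.6 to 13.9 RPKM in the controls (log2 -0.91 ± 0.20, adjusted p = 0.0165, limma), and Osi24 had 12.5, 12.7 and 20.1 RPKM in Hexa and 24.1, 29.8 and 25.7 RPKM in Quad (log2 -0.84 ± 0.21, adjusted p = 0.0242). Of 46 cuticle protein genes 2 rose (4.35%) and 1 fell (2.17%) on RPKM, beside 13.5% and 9.63% of all genes. With the trend removed 7 were lower and none higher, as against 6.81% of all genes lower. In both lists more members were thus lower once the trend was removed, and none passed without Hexa 2 or with the heat shock covariate. TwdlE, a Tweedle protein gene, was lower in both, with 72.8, 66.5 and 84.9 RPKM in Hexa and 107, 106 and 111 RPKM in Quad (log2 -0.54 ± 0.14, adjusted p = 0.0256). Genes of cuticle tanning went both ways: yellow-f had 3.49, 3.16 and 3.13 RPKM in Hexa and 1.25, 1.48 and 1.16 RPKM in Quad (log2 1.27 ± 0.19, adjusted p = 0.00390), and laccase2 had 43.2, 31.6 and 51.8 RPKM in Hexa and 71.8, 75.5 and 76.8 RPKM in Quad (log2 -0.85 ± 0.18, adjusted p = 0.0131).

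**Figure D4:**
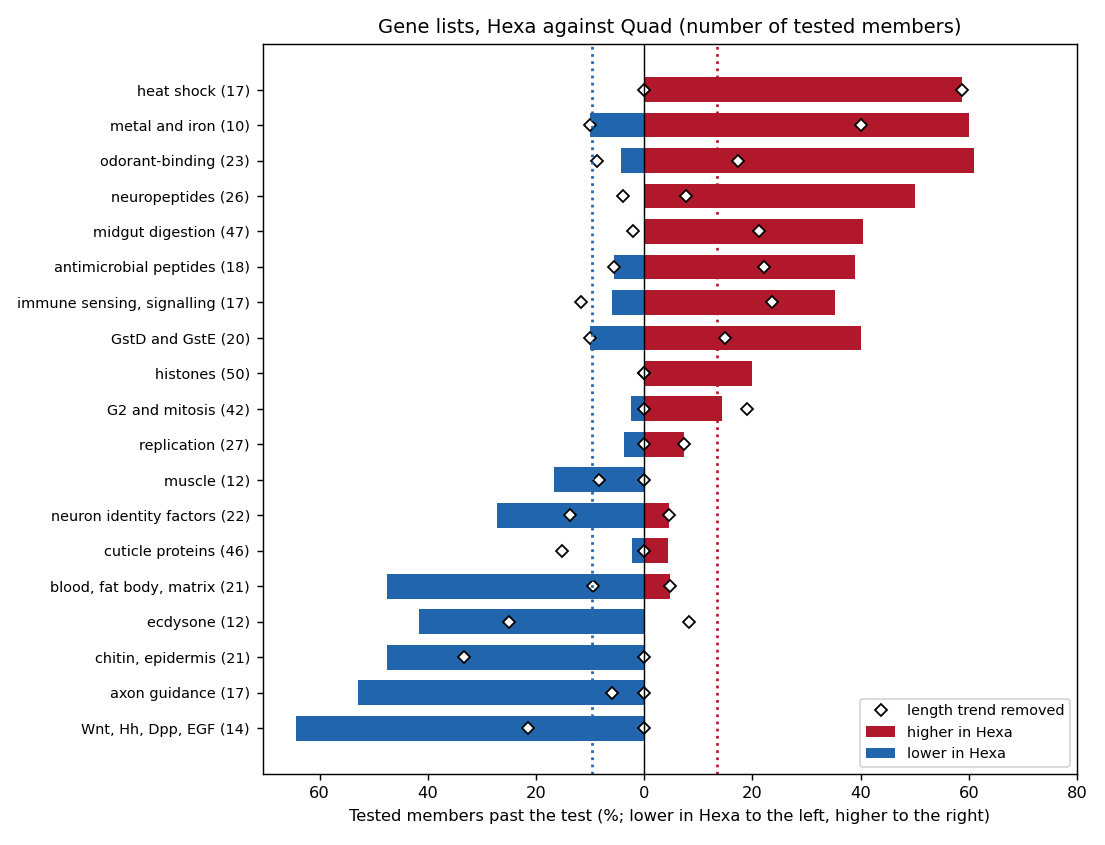
For each gene list (number of tested members in brackets), the percentage of members lower (blue, to the left) and higher (red, to the right) in Hexa than in Quad past the threshold; diamonds give the same with the length trend removed and dotted lines the share over all tested genes (9.63% lower, 13.5% higher). Heat shock genes stand at 58.8% higher with and without the trend (8 genes shared), odorant-binding, neuropeptide and axon guidance genes lose most of their calls, and genes of chitin and the epidermis stay past the background on the lower side.

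Of 12 ecdysone-related genes 5 fell (41.7%, beside 9.63% of all genes) at a median of log2 -0.65, and 4 without Hexa 2. The nuclear receptor gene ftz-f1 had 80.8, 69.1 and 102 RPKM in Hexa, 154, 137 and 144 RPKM in Quad and 131 to 173 RPKM in the controls (log2 -0.80 ± 0.16, adjusted p = 0.0124, limma), and the ecdysone receptor gene EcR had 9.52, 7.41 and 12.4 RPKM in Hexa and 19.1, 19.0 and 17.2 RPKM in Quad (log2 -0.94 ± 0.20, adjusted p = 0.0139). ImpE2, whose longest transcript of 1708 bases is near the median of the tested genes, had 59.6, 69.6 and 132 RPKM in Hexa and 151, 202 and 173 RPKM in Quad (log2 -1.09 ± 0.26, adjusted p = 0.0208). These 3 were also lower with the length trend removed (adjusted p = 0.0308, 0.0251 and 0.0214). Of 14 genes of Wnt, Hedgehog, Dpp and EGF signalling 9 fell (64.3%, beside 9.63% of all genes) at a median of log2 -0.65. Among them were the Hedgehog receptor gene ptc (4.80, 3.57 and 6.98 RPKM in Hexa, 9.31, 9.28 and 8.98 RPKM in Quad, log2 -0.88 ± 0.21, adjusted p = 0.0196) and its transcription factor gene ci (15.0, 10.4 and 17.4 RPKM in Hexa, 24.9, 30.7 and 25.3 RPKM in Quad, log2 -0.94 ± 0.22, adjusted p = 0.0207). After removal of the length trend 3 of the 14 were lower, as were 3 without Hexa 2, 2 without Hexa 1, 1 without Quad 2 and none without Quad 1 or Quad 3. The heat shock covariate left no call in either list, at medians of log2 -0.56 for the ecdysone list and -0.50 for the signalling list. ex, which encodes the Hippo pathway protein Expanded, had 7.27, 3.30 and 9.29 RPKM in Hexa and 15.5, 14.1 and 13.2 RPKM in Quad (log2 -1.22 ± 0.34, adjusted p = 0.0344), a call lost with the trend removed (adjusted p = 0.0550).

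Blood cell, fat body and basement membrane genes fell in 10 of 21 cases (47.6%, beside 9.63% of all genes) and rose in 1. Ppn, which encodes the matrix protein papilin, had 87.2, 67.2 and 101 RPKM in Hexa and 166, 145 and 180 RPKM in Quad (log2 -0.96 ± 0.17, adjusted p = 0.00696, limma). LanB1, a laminin subunit gene, had 80.4, 64.1 and 94.2 RPKM in Hexa and 130, 128 and 149 RPKM in Quad (log2 -0.78 ± 0.15, adjusted p = 0.00868). PPO1, which encodes a prophenoloxidase of crystal cells and has a longest transcript of 2338 bases, had 31.5, 35.5 and 49.6 RPKM in Hexa and 60.4, 63.0 and 64.5 RPKM in Quad (log2 -0.71 ± 0.17, adjusted p = 0.0195). On values freed of the length trend 2 of the 21, Ppn and PPO1, were lower, and without Hexa 2 there were 6 lower. With the heat shock covariate 1 was lower and 1 higher. Of 12 muscle genes 2 fell (16.7%, beside 9.63% of all genes). They were how, which encodes an RNA-binding protein of muscle and tendon cells, with 81.7, 51.8 and 104 RPKM in Hexa and 162, 179 and 161 RPKM in Quad (log2 -1.14 ± 0.23, adjusted p = 0.0124), and sls, the fly titin gene (log2 -0.57 ± 0.17, adjusted p = 0.0442).

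Of the remaining largest falls, Pif1B had 22.1, 15.0 and 22.6 RPKM in Hexa, 73.4, 61.7 and 60.6 RPKM in Quad and 66.7, 30.6 and 62.3 RPKM in the controls (log2 -1.73 ± 0.29, adjusted p = 0.00594, limma). It passed without any single library and missed the threshold with the length trend removed (adjusted p = 0.0551). The deposited count column holds only 8 reads of Pif1B, so its fall rests on RPKM. CheB42c, of a family of chemosensory proteins, had 2.28, 2.06 and 3.24 RPKM in Hexa, 5.69, 5.33 and 6.74 RPKM in Quad and 4.99 to 7.93 RPKM in the controls (log2 -1.21 ± 0.22, adjusted p = 0.00719). On the deposited counts it did not differ past the threshold (log2 -0.02, adjusted p = 0.971, edgeR).

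By chromosome, the small chromosome 4 stood apart from the other arms in the fit of all libraries. Of its 57 tested genes 20 fell (35.1%) and 1 rose, at a median of log2 -0.55, while 8.89% to 10.5% of the genes fell on each of the arms 2L, 2R, 3L, 3R and X. Genes of chromosome 4 had a median transcript length of 3612 bases, and Hexa 2 deviated most there (median log2 -0.59, against -0.26 and -0.15 in Hexa 1 and Hexa 3 and 0.11 to 0.28 in Quad). Once the trend on length was removed 10 of the 57 were lower at a median of log2 -0.22, beside 6.81% of all genes. Without Hexa 2 there were 2 of the 57 lower, near the share of all genes (209 of 6190).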

How the data were processed

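The authors deposited 1 table of 10221 genes with, per the file headers, a raw read count, a linear RPKM and a log2 RPKM per library. The log2 RPKM columns the authors deposited were converted to RPKM, with their floor of -10.86 set to 0. The 9 linear RPKM columns were not used, because the headers of some controls name another driver. Per the labels' protocols the libraries were sequenced on a HiSeq2500 with 150 bp reads. The sources used here do not name the aligner, counter, strand setting, genome build or annotation. In 5506 rows, 2483 of them tested, the deposited count matched RPKM times a length per gene and a constant per library. The match had to hold in every library to within rounding or a small share of the count. Of those tested, 2432 have a single annotated transcript, so count tests are alternatives. Names were matched to the BDGP6.54 annotation for transcript length and chromosome, 7681 by symbol and 2410 by synonym.

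Groups and library numbers came from the sample titles. The test was limma 3.58.1 in R 4.3.3 (trend, robust moderation) applied to log2(RPKM + 0.1) of the 9 libraries together, with group as the only term and the contrast Hexa minus Quad. The 6190 genes that reached 0.5 RPKM in 3 or more libraries entered it. The pseudocount understates the change of low genes. A gene was called at an adjusted p (Benjamini-Hochberg) under 0.05, and 95% intervals are from the moderated fit, unadjusted. edgeR 4.0.16 and DESeq2 1.42.0 were run on the deposited counts with a minimum of 10. The tests were checked on simulated data. The other alternatives are listed in the closing section. Removal of the trend on transcript length (lowess, 6096 genes with a length) was chosen after seeing the data.

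The genes compared, the gene lists and the alternatives were chosen with earlier results of these data known, and list counts are descriptions without a test. Named are the 6 genes with UAS transgenes, dpn, mira, CycE, stg and repo, up to 5 called members per list with the smallest p (3 where none was called), and the 14 largest rises and falls. Those had to pass the test with no overlap between libraries, a mean of at least 5 RPKM in the higher group and a symbol other than a bare CG or CR number (278 higher and 336 lower qualified).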

Additional observations from a re-analysis of the deposited data

How the results depend on the processing

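The calls between Hexa and Quad numbered 1431 (835 higher, 596 lower). Count tests gave fewer: 686 with edgeR and TMM (368 higher, 318 lower; 537 shared in direction), 681 with DESeq2 size factors (381 and 300), 637 without a filter (360 and 277), 458 over the 3167 rows with matching counts (241 and 217), and 1037 with DESeq2 (505 and 532). Fits of Hexa and Quad libraries only (1537), pseudocounts of 0.01 (1386) and 1 (1499), a filter at 1 RPKM (1417) and limma without trend and robust moderation (1205) stayed closer. Without the filter on RPKM the calls were 1042 (671 higher, 371 lower). TMM factors on RPKM and median centring moved the median of all genes by less than 0.1 and gave 46.5% and 48.7% of calls as higher, against 58.4%. Leaving out 1 library gave 442 (without Quad 3) to 2004 (without Control 2) calls, 355 to 1164 higher and 87 to 873 lower. Without Hexa 1, Hexa 2, Quad 1 and Quad 2 there were 560, 643, 558 and 574. The heat shock covariate left 337 (310 and 27) and the length trend 986 (571 and 415). For the numbers shared by libraries of different genotypes, the Hexa and Quad deviations correlated at -0.027, 0.072 and 0.060, so the numbers are not taken as pairs. The replicate block gave 882 calls (616 higher, 266 lower).

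On counts hb was reversed (-0.51 with TMM, -0.49 with the other 3 count settings), as was nub (-1.53 with TMM and DESeq2, -1.52 otherwise). The hb difference was 1.62 and not past the threshold with the heat shock covariate (adjusted p = 0.274) and 1.56 to 2.51 on leaving out 1 library. For nub it was 0.74, past the threshold, with the length trend removed and 0.29 to 0.54 on leaving out 1 library. SoxN was not past the threshold without the filter (-0.56, adjusted p = 0.0508), with the replicate block (-0.56, adjusted p = 0.0648), the heat shock covariate (-0.39) or the length trend removed (-0.26), and ranged from -0.67 to -0.39 on leaving out 1 library. With the length trend removed Kr was at 0.02, CycE and repo at 0.03 and stg at 0.09. stg was at 0.12 or 0.13 on counts and at 0.05 without Hexa 1. Hsp26 and Hsp23 turned to -0.14 and -0.12 with the heat shock covariate. That covariate is the average of the heat shock genes themselves, so the fit takes out most of their own difference. Cht6, with 1 read in the count column, turned to 2.04 in edgeR without a filter. The cause of the other shifts was not tested. Sequences of promoters were not analysed here.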

Other observations

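Several genes known only by a CG number, which the naming rule left out and which were picked after their values were seen, had levels that set Quad or Hexa far from both other groups. CG11865 averaged 0.239 ± 0.0693 RPKM in Hexa, 7.76 ± 2.54 RPKM in Quad and 0.017 ± 0.0147 RPKM in the controls (SD, n = 3 each). CG31219 averaged 0.461 ± 0.225 RPKM in Hexa, 8.34 ± 1.29 RPKM in Quad and 0.176 ± 0.0353 RPKM in the controls. The order with Quad as the highest group is also that of GstD7, GstD6, Obp56g and Drsl6. In the other direction, CG8087 averaged 120 ± 37.1 RPKM in Hexa, 6.74 ± 3.79 RPKM in Quad and 0.0744 ± 0.0781 RPKM in the controls. CG32071 averaged 47.1 ± 19.1 RPKM in Hexa, 5.58 ± 4.75 RPKM in Quad and 0.113 ± 0.0375 RPKM in the controls, the order that lcs also has. No test is given for these 4 genes, because they were chosen for these levels and CG11865 reached the filter on low values in Quad libraries alone.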
